A study of Homo sapiens with 6 samples.

Results

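The genes examined here encode the route by which a cell takes up glucose and splits it to pyruvate and lactate. They are a list of 10 genes, chosen by symbol for their role in this route: the glucose transporter gene SLC2A1, the hexokinase genes HK1 and HK2, PFKP and PFKFB3 of the phosphofructokinase step, ALDOA, PGK1, ENO1 and PKM of the later steps, and LDHA. The list was drawn up with earlier results of these data known. All 10 were found by name among the 20333 gene intervals of the deposited table, and all 10 passed the filter on low counts that left 19902 intervals to test. The values are counts from PRO-seq, a precision run-on assay of nuclei, in which engaged RNA polymerases extend their transcripts in permeabilised cells, so a count reports ongoing transcription and not the amount of mature RNA or enzyme.

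T47D is an established line of luminal breast cancer, labelled estrogen receptor positive and HER2 negative, and was kept in complete medium with growth factors. In each of the 3 arms exposure lasted 5 h. The arms were DMSO (solvent only), 500 nM GDC0068, a catalytic inhibitor of the AKT kinases, and 100 nM INY-05-040, a compound that has the AKT proteins degraded, named Degrader below after the labels. The drug doses are unequal because, per the series description, they were matched on how far AKT signalling was suppressed. Each arm has 2 libraries, labelled replicate 1 and replicate 2, and all values describe 1 cell line. The series text speaks of independent experiments. The replicate number was taken here to mark the experiment, which the labels do not state.

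Total counts ran from 25371819 to 32192576 per library. Counts of the 10 genes ran from 447, at which counting error alone is 4.73%, to 21897. All 8 luminal markers examined were measured, and their summed level was 5377 to 5715 CPM (each count scaled to its library's total). Of 6 basal or mesenchymal markers 1 was analysed, ZEB1, at 5.24 to 6.01 CPM, and of 8 stromal, endothelial or immune markers 1, CD68, a lysosomal membrane gene that is also used as a macrophage marker. CD68 stood at 83.6 and 77.2 CPM in DMSO and at 55.1 to 67.6 CPM under the drugs, moving with the arms as several genes below do. The part of this in the results was not tested.

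Glycolysis runs in the cytosol. Glucose enters through facilitative transporters, is trapped by phosphorylation, is phosphorylated again at the committed phosphofructokinase step, is cleaved into trioses and is oxidised to pyruvate, which lactate dehydrogenase can reduce to lactate. Insulin and growth factor signalling through PI3K and AKT is known to raise glucose uptake and hexokinase activity, and the transcription factors HIF1A and MYC are known to act on many genes of this route, including SLC2A1, HK2, PGK1, ENO1 and LDHA.

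The promoters of 5 of the genes are shown because these genes cover several of the kinds of behaviour described below. LDHA, PGK1 and HK2 fell under both drugs, ENO1 was called under neither, and PFKFB3 had a higher mean under both. SLC2A1 and ALDOA, called lower under Degrader only, are not shown. Each line gives the 250 bases that end just before the RefSeq start site closest to the deposited one (build GRCh38.p14), read 5′ to 3′ on the gene's own strand. Capitals mark ACGTG or GCGTG on either strand, the core letters known to be bound by hypoxia-inducible factors; the letters CACGTG, bound by MYC and its relatives among others, hold ACGTG on both strands.
LDHA, chr11:18394313-18394562, plus strand: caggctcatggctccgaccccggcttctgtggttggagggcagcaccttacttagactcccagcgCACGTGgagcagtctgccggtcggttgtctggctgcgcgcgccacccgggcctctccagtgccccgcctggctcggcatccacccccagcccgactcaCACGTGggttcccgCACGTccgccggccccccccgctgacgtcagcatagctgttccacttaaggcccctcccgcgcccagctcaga
PGK1, chrX:78103998-78104247, plus strand: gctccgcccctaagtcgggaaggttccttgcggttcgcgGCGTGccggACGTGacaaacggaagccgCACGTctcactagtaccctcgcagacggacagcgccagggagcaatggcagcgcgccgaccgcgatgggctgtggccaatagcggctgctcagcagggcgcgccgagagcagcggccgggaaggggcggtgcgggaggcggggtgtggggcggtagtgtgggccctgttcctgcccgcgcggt
HK2, chr2:74833877-74834126, plus strand: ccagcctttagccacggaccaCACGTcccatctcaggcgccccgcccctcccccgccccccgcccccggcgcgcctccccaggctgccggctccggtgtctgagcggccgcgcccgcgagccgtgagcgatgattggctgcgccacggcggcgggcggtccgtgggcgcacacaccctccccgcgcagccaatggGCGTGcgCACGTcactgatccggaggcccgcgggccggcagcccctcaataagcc
PFKFB3, chr10:6202682-6202931, plus strand: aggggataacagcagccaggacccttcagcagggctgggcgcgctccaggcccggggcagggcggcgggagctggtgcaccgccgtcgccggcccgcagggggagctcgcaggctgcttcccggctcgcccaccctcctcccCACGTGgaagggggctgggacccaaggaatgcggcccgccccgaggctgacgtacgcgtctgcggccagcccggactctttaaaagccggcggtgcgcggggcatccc
ENO1, chr1:8878687-8878936, minus strand: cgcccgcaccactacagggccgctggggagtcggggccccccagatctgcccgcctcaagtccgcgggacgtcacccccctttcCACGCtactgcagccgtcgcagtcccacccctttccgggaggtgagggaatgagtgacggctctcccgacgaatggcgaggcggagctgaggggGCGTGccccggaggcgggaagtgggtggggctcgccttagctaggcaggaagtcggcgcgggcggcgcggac

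In windows from 250 bases before to 50 bases after the start site, ACGTG or GCGTG was found on either strand in 48.4% of all 35116 RefSeq promoter windows, so a match is common. With positions counted from the start site, LDHA held CACGTG with its first base at -185 and at -87, a further ACGTG on the opposite strand at -73 and GCGTG at 38. PGK1 held GCGTG at -211 and ACGTG at -202, -183 and 28, and HK2 held ACGTG at -229 and -48 and GCGTG at -55. PFKFB3 held 1 CACGTG, a word found in 7.26% of windows, at -108, and ENO1 held GCGTG at -166 and -72. The window of PFKP held none of these words, but its closest RefSeq start lies 422 bp downstream of the deposited one, and that of HK1 lies 199 bp downstream. The other 8 genes had a RefSeq start within 20 bp of the deposited start. The word TGTTTAC, bound by FOXO and other forkhead factors, was found on either strand in 3.42% of all windows and in none of the 10, which says only that these letters are not in these windows. The matches are a description of letters, not of bound sites.

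Levels of different genes were compared as CPM per kb of interval, since long genes collect more reads. In DMSO the order was ALDOA (21.1 ± 0.43 CPM per kb; SD, n = 2 throughout), PFKFB3 (16.3 ± 3.6), ENO1 (11.2 ± 0.13), PKM (6.91 ± 0.28), LDHA (6.77 ± 0.10), SLC2A1 (2.55 ± 0.013), HK1 (2.26 ± 0.082), PFKP (2.02 ± 0.087), PGK1 (1.62 ± 0.037) and HK2 (0.481 ± 0.018). The PKM and LDHA libraries overlapped in this order, and no other pair of neighbours did. Under the drugs LDHA dropped below PKM in every library, at 4.36 to 4.77 against 5.06 to 5.55 CPM per kb. ALDOA and PFKFB3 no longer stood apart there, at 18.3 to 18.9 and 18.7 to 23.4 CPM per kb. The intervals run from 4660 bp for ALDOA to 83018 bp for HK1. That of ALDOA, first in the order, lies inside another interval on the same strand. RefSeq gives longer genes for PFKFB3 (181717 bp against 32601 bp here) and HK1 (131883 bp). Levels per kb therefore depend on the interval used.

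**Figure D1:**
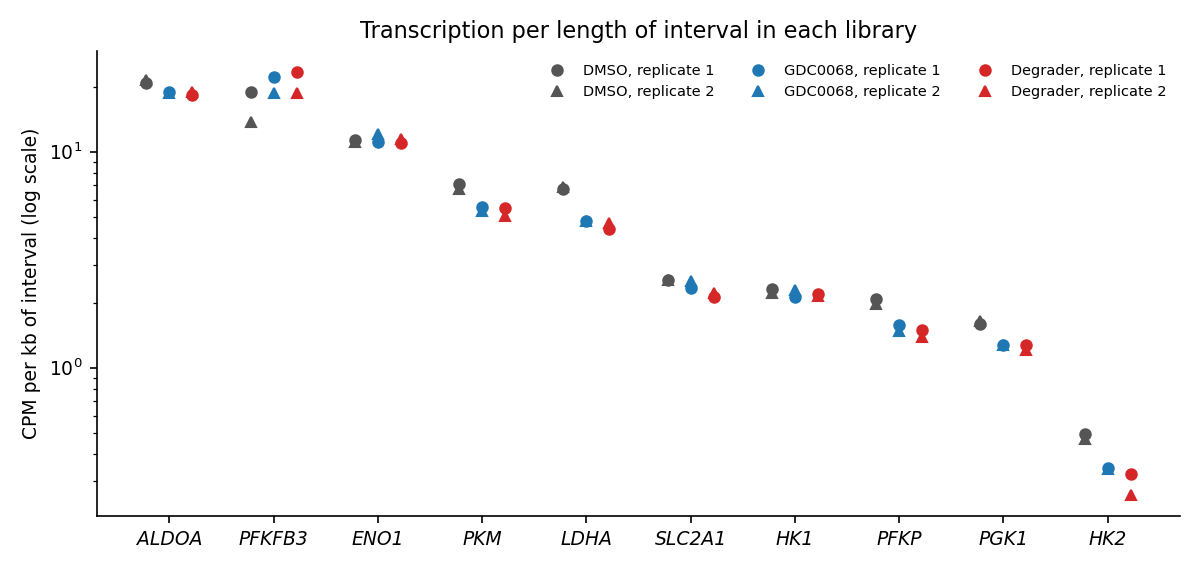
Transcription of the 10 genes in each library as CPM per kb of interval on a log scale, ordered by the DMSO mean; circles are replicate 1 and triangles replicate 2 of DMSO (grey), GDC0068 (blue) and Degrader (red). HK2, between 0.259 and 0.494 CPM per kb, lies below the other 9 genes in all libraries.

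Most of the 10 genes were called lower under Degrader than with DMSO, and 5 of them were called lower under both drugs. The 10 were chosen with earlier results of these data known. Shares over all intervals are therefore given for scale and not as a test. Under Degrader 7 of the 10 genes were called lower and 0 higher (SLC2A1, HK2, PFKP, ALDOA, PGK1, PKM and LDHA), at an edgeR adjusted p under 0.05. The same test called 7.88% of all 19902 intervals lower, 7.39% higher and 15.3% in either direction. Under GDC0068 5 of the 10 were called lower and 0 higher (HK2, PFKP, PGK1, PKM and LDHA), where 1.88% of all intervals were lower, 1.7% higher and 3.58% called in either direction. These 5 are also called under Degrader; the contrasts share their DMSO libraries. The median log2 fold change of the 10 genes was -0.31 under Degrader and -0.26 under GDC0068, against 0.00 and 0.01 over all intervals. With the experiment as a block, edgeR called 8 of the 10 under Degrader (7 lower, 1 higher) and 7 under GDC0068 (6 lower, 1 higher). That fit called 30.7% of all intervals under Degrader (15.7% lower, 15.1% higher) and 17.8% under GDC0068 (8.91% lower, 8.87% higher). Leaving out either DMSO replicate or either GDC0068 replicate lowered the GDC0068 count of the 10 genes. Each of these refits also lowered the count over all intervals.

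In both experiments taken alone, 8 of the 10 genes were lower with Degrader than with DMSO, and 7 with GDC0068. The share of all intervals lower in both experiments was not counted. It can be no smaller than the 29.2% and 24% given below for drug libraries lying under DMSO. PFKFB3 was higher in both experiments with either drug. Both libraries of the drug lay below both DMSO libraries in 8 genes under Degrader and in 7 under GDC0068, an arrangement shown by 29.2% and 24% of all intervals. The opposite arrangement, seen in 0 of the 10, was shown by 29.3% and 26.1%, so that 58.6% and 50.1% of all intervals had arms that did not overlap. The summed level of the 10 genes overlapped between the arms, at 1528 and 1726 CPM in DMSO and 1523 to 1684 CPM under the drugs. PFKFB3 made up the largest part of that sum in every library.

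**Figure D2:**
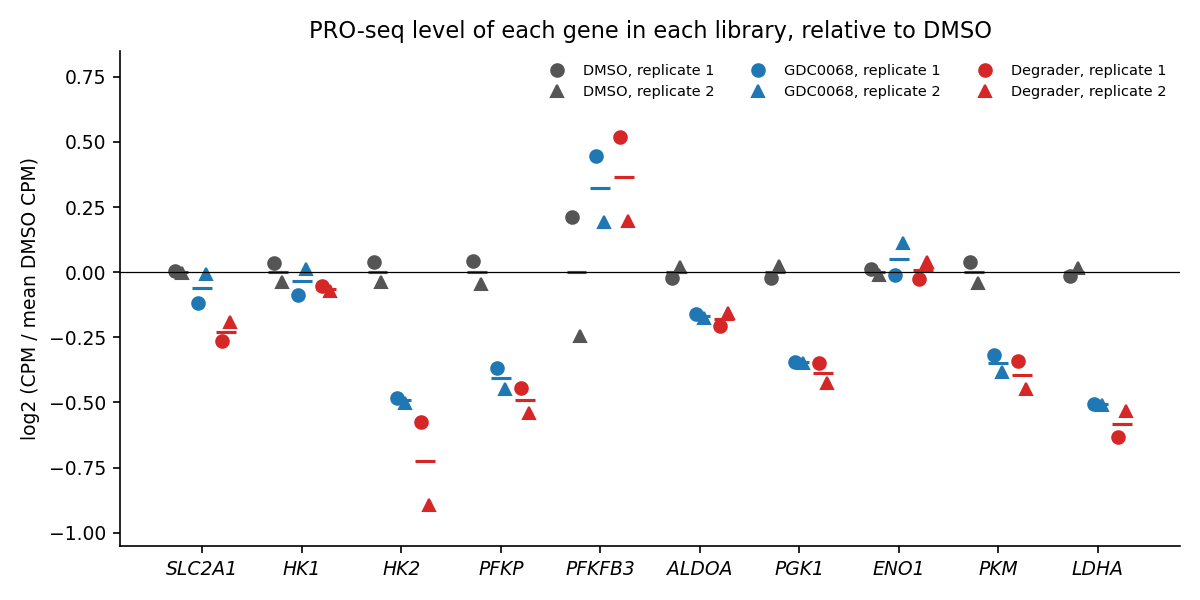
log2 of the CPM of each gene in each library over its mean DMSO CPM; circles and triangles are replicates 1 and 2, short lines are arm means, and grey, blue and red are DMSO, GDC0068 and Degrader. SLC2A1, HK2, PFKP, ALDOA, PGK1, PKM and LDHA lie below DMSO in all 4 drug libraries, SLC2A1 only just so in GDC0068 replicate 2. PFKFB3 is spread widely in every arm, from 448 to 616 CPM in DMSO.

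Glucose uptake was represented by SLC2A1, which encodes GLUT1, the widely expressed facilitative glucose transporter (ENSG00000117394, chromosome 1, 42925375 to 42958868, minus strand; coordinates are those of the deposited table, for which hg38 is the human build in the submitters' processing notes). SLC2A1 had 85.6 and 84.98 CPM in DMSO, 78.5 and 84.8 CPM with GDC0068 and 71.0 and 74.7 CPM with Degrader. The Degrader libraries were the lowest, and 1 GDC0068 library lay just below DMSO. Under Degrader SLC2A1 fell by 14.6% (log2 fold change -0.23, SE 0.0556, edgeR adjusted p = 0.0185). The call was lost without any 1 of the 4 libraries compared, with edgeR adjusted p from 0.0596 without Degrader replicate 2 to 0.123 without Degrader replicate 1, 0.0658 without DMSO replicate 2 and 0.108 without DMSO replicate 1. Under GDC0068 the log2 fold change was -0.06 (95% interval -0.18 to 0.06, edgeR adjusted p = 0.585).

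The hexokinases phosphorylate glucose on entry. HK1 is the isozyme of most tissues, and HK2 is the isozyme of insulin-sensitive tissues that many tumours express. HK2 (ENSG00000159399, chromosome 2, 74834147 to 74893359, plus strand) had 29.3 and 27.8 CPM in DMSO, 20.4 and 20.1 CPM with GDC0068 and 19.1 and 15.3 CPM with Degrader. The DMSO libraries lay above all 4 drug libraries, and Degrader replicate 2 was the lowest. HK2 fell by 39.5% under Degrader, with the lowest log2 fold change of the 10 genes at -0.73 (SE 0.105, edgeR adjusted p = 0.00126), and with GDC0068 changed by -28.9% (log2 -0.49, SE 0.103, edgeR adjusted p = 0.0289). The GDC0068 call was lost without any 1 of the 4 libraries compared (edgeR adjusted p of 0.173 without DMSO replicate 1, 0.0995 without DMSO replicate 2, 0.0834 without GDC0068 replicate 1 and 0.108 without GDC0068 replicate 2).

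HK1 (ENSG00000156515, chromosome 10, 69318865 to 69401882, plus strand) had 193 and 183 CPM in DMSO, 177 and 190 CPM under GDC0068 and 181 and 179 CPM under Degrader. Its arms lay close together, with log2 fold changes of -0.06 under Degrader (95% interval -0.18 to 0.05, edgeR adjusted p = 0.47) and -0.04 under GDC0068 (-0.15 to 0.08, edgeR adjusted p = 0.764). Per kb, HK2 made up 17.5% of the summed HK1 and HK2 level in both DMSO libraries, 13.9% and 13% with GDC0068 and 12.9% and 10.7% with Degrader. The share was lower in all 4 drug libraries than in DMSO.

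At the committed step, PFKP encodes the platelet-type subunit of phosphofructokinase, and PFKFB3 encodes the enzyme that makes fructose 2,6-bisphosphate, the activator of phosphofructokinase. Their mean levels under the drugs lay on opposite sides of DMSO. PFKP (ENSG00000067057, chromosome 10, 3067548 to 3136802, plus strand) had 144 and 136 CPM in DMSO, 109 and 103 CPM under GDC0068 and 103 and 96.3 CPM under Degrader. All 4 drug libraries lay below DMSO. PFKP fell by 28.9% under Degrader (log2 fold change -0.49, SE 0.0557, edgeR adjusted p = 3.97e-04) and with GDC0068 changed by -24.6% (log2 -0.41, SE 0.0557, edgeR adjusted p = 0.00623). Without DMSO replicate 1 the GDC0068 call was lost (edgeR adjusted p = 0.0569).

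PFKFB3 (ENSG00000170525, chromosome 10, 6202932 to 6235532, plus strand) had 616 and 448 CPM in DMSO, 724 and 608 CPM under GDC0068 and 762 and 609 CPM under Degrader. In every arm the library of experiment 1 was the higher, and DMSO overlapped the drug arms. The log2 fold change was 0.37 with Degrader (SE 0.138, edgeR adjusted p = 0.0972) and 0.32 with GDC0068 (SE 0.138, edgeR adjusted p = 0.216), and neither was called. Within experiments 1 and 2 the difference was 0.31 and 0.44 under Degrader and 0.23 and 0.44 under GDC0068. With the experiment as a block PFKFB3 was called higher under both drugs, with edgeR adjusted p of 4.89e-08 and 1.07e-06. Its Degrader value was 0.61 (edgeR adjusted p = 0.0266) without DMSO replicate 1, when it was called, and as low as 0.16 without another library. PFKFB3 overlaps no other interval.

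Below the cleavage step, ALDOA encodes aldolase A, which splits fructose 1,6-bisphosphate, and PGK1 encodes phosphoglycerate kinase, which makes ATP. ALDOA (ENSG00000149925, chromosome 16, 30065761 to 30070420, plus strand) had 97.0 and 99.8 CPM in DMSO, 88.1 and 87.1 CPM under GDC0068 and 85.3 and 88.3 CPM under Degrader. Both drug arms lay below DMSO at like levels. ALDOA fell by 11.8% under Degrader (log2 fold change -0.18, SE 0.0491, edgeR adjusted p = 0.0294), and its value under GDC0068 was -0.17 (SE 0.0491, edgeR adjusted p = 0.0847), which was called lower with the experiment as a block (edgeR adjusted p = 0.00311). The Degrader call was lost under DESeq2 (adjusted p = 0.09) and without any 1 of the 4 libraries compared (edgeR adjusted p of 0.0938 and 0.137 without DMSO replicates 1 and 2, and of 0.16 and 0.0921 without Degrader replicates 1 and 2). The ALDOA interval lies wholly inside that of AC093512.2 on the same strand (30053192 to 30070420), which had 164 ± 4.1 CPM in DMSO and was called under neither drug (log2 fold changes -0.09 and -0.10), so reads of these genes cannot be told apart.

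PGK1 (ENSG00000102144, chromosome X, 78104255 to 78129295, plus strand) had 40.0 and 41.4 CPM in DMSO, 32.1 and 32.0 CPM with GDC0068 and 31.9 and 30.3 CPM with Degrader. The DMSO libraries stood above the others, which lay within a narrow range. PGK1 fell by 23.6% under Degrader (log2 fold change -0.39, SE 0.0662, edgeR adjusted p = 0.00314) and with GDC0068 changed by -21.3% (log2 -0.35, SE 0.0662, edgeR adjusted p = 0.0205). The GDC0068 call was lost without any 1 of the 4 libraries compared (edgeR adjusted p of 0.118 and 0.126 without DMSO replicates 1 and 2, and of 0.0673 and 0.0879 without GDC0068 replicates 1 and 2).

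ENO1 encodes enolase 1, which makes phosphoenolpyruvate, and PKM encodes pyruvate kinase of muscle and most tumours. ENO1 (ENSG00000074800, chromosome 1, 8861000 to 8878686, minus strand) had 199 and 196 CPM in DMSO, 196 and 214 CPM with GDC0068 and 194 and 203 CPM with Degrader. The arms overlapped. Its log2 fold changes were 0.01 under Degrader (95% interval -0.11 to 0.13, edgeR adjusted p = 0.954) and 0.05 under GDC0068 (-0.07 to 0.17, edgeR adjusted p = 0.647).

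PKM (ENSG00000067225, chromosome 15, 72199029 to 72231190, minus strand) had 229 and 216 CPM in DMSO, 178 and 170 CPM under GDC0068 and 175 and 163 CPM under Degrader. All 4 drug libraries were below DMSO. PKM fell by 23.9% under Degrader (log2 fold change -0.39, SE 0.056, edgeR adjusted p = 0.00118) and with GDC0068 changed by -21.6% (log2 -0.35, SE 0.0561, edgeR adjusted p = 0.01). The GDC0068 call was lost without DMSO replicate 1 (edgeR adjusted p = 0.0925) and without GDC0068 replicate 2 (0.0676). Gene counts do not separate the alternatively spliced PKM1 and PKM2 transcripts.

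LDHA encodes the A subunit of lactate dehydrogenase, which turns pyruvate into lactate. LDHA (ENSG00000134333, chromosome 11, 18394563 to 18408425, plus strand) had 92.8 and 94.8 CPM in DMSO, 66.2 and 65.9 CPM under GDC0068 and 60.5 and 64.9 CPM under Degrader. Of the 10 genes it had the smallest adjusted p under both drugs. It fell by 33.2% under Degrader (log2 fold change -0.58, SE 0.0536, edgeR adjusted p = 1.32e-04) and with GDC0068 changed by -29.6% (log2 -0.51, SE 0.0535, edgeR adjusted p = 0.00169), and both calls held in each of the 17 alternatives run. Over the 6 libraries, the genes with the log2 CPM profile most like that of LDHA were ADM2, ADCY3, ZDHHC14 and AC119673.3, with root mean square differences of 0.0312, 0.0415, 0.0546 and 0.0601, where the median over 13819 intervals was 0.271. ADM2 encodes a secreted peptide of the calcitonin family, ADCY3 an adenylyl cyclase and ZDHHC14 a palmitoyltransferase; their log2 fold changes were -0.55, -0.61 and -0.56 under Degrader and -0.46, -0.52 and -0.43 under GDC0068.

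**Figure D3:**
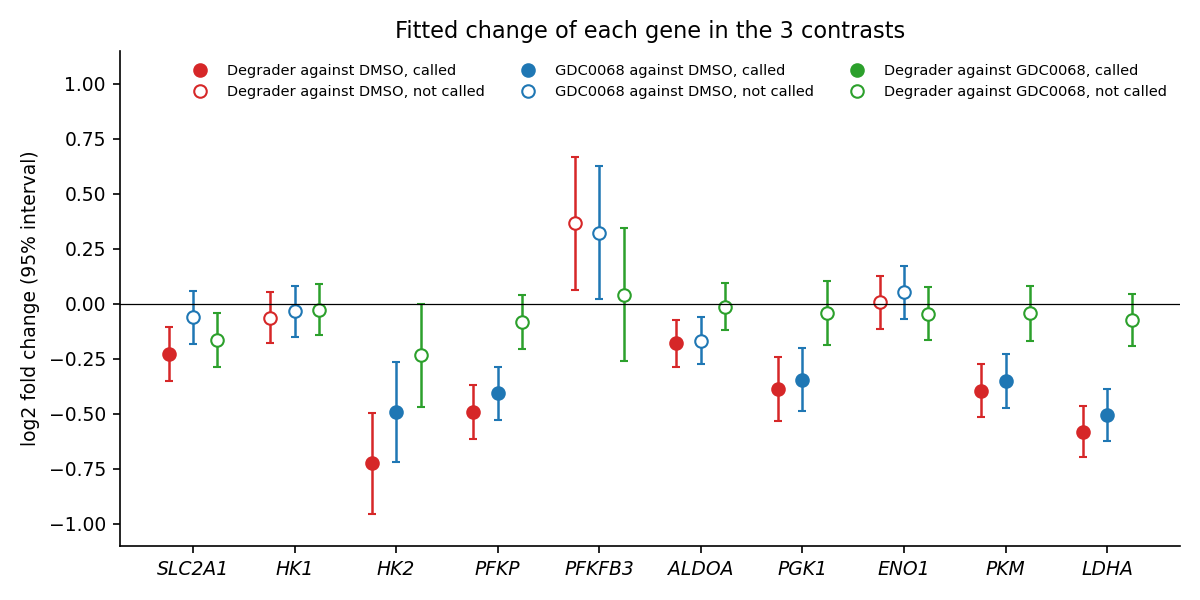
Fitted log2 fold change of each gene with its 95% interval for Degrader against DMSO (red), GDC0068 against DMSO (blue) and Degrader against GDC0068 (green); filled points passed an edgeR adjusted p under 0.05. Called values lie from -0.73 to -0.18 under Degrader and from -0.51 to -0.35 under GDC0068, and no green point is filled.

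Whether loss of the AKT proteins and block of their activity differ for this route was read from the direct contrast of the drugs, at unequal doses. edgeR called 0 of the 10 genes, and 0.266% of all intervals (0.151% lower under Degrader, 0.116% higher); an unadjusted p under 0.05 was reached by 2 of the 10, SLC2A1 and HK2, and by 2811 of all 19902 intervals, a like share. DESeq2 and limma voom also called 0. The log2 fold change was below 0, that is lower under Degrader, in 9 of the 10 genes and in 10175 of all 19902 intervals. The median was -0.05 for the 10 genes against 0.00 over all intervals. All 10 values come from the same libraries, so their signs are not independent. SLC2A1 stood at -0.17 (95% interval -0.29 to -0.04, edgeR adjusted p = 0.218), and with the experiment as a block it was called lower under Degrader (edgeR adjusted p = 0.0123), beside 10.4% of all intervals (5.35% lower, 5.03% higher). Both Degrader libraries lay below both GDC0068 libraries in 4 of the 10 genes (SLC2A1, HK2, PGK1 and LDHA) and above them in 0, where 22.9% of all intervals lay below, 22.1% above and 45% one or the other. HK2 stood at -0.23, with an interval from -0.47 to 0.00 (edgeR adjusted p = 0.354).

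For LDHA the difference between the drugs was -0.075 (95% interval -0.19 to 0.04), for PFKP -0.08 (-0.21 to 0.04), for PKM -0.04 (-0.17 to 0.08) and for PGK1 -0.04 (-0.19 to 0.11). These intervals exclude a difference between the drugs as large as the fall under either drug in LDHA, PFKP, PKM and PGK1. The interval for PFKFB3 was wide, from -0.26 to 0.34. Missing the threshold does not show that the drugs act alike.

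The rest of glucose metabolism was followed through 89 further genes in 8 lists, of which 73 were tested. Under Degrader 16 of the 73 were called lower and 8 higher (edgeR), against 7.88% and 7.39% of all intervals. Under GDC0068 6 were lower and 2 higher, against 1.88% and 1.7%, and the experiment block raised this count from 8 to 23 (8 higher, 15 lower). That block called 17.8% of all intervals under GDC0068. Leaving out 1 library of either arm compared lowered the count of the 73 under GDC0068 and under Degrader. Each of these refits also lowered the count over all intervals. The median log2 fold change over the 73 genes was -0.07 under Degrader and -0.05 under GDC0068. Between the drugs 0 of the 73 were called, 11 had an unadjusted p under 0.05, a share like that of all intervals (2811 of 19902), and 10 were called with the block (2 higher, 8 lower under Degrader), where 10.4% of all intervals were.

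Among the 13 other glycolytic enzyme genes tested, 3 were called lower under Degrader, GPI, PFKL and GAPDH, and 0 higher. Of all intervals 7.88% were called lower there and 7.39% higher. GPI, which interconverts glucose and fructose 6-phosphates, had 88.6 and 81.6 CPM in DMSO, 63.3 and 57.4 CPM with GDC0068 and 59.1 and 52.8 CPM with Degrader. The DMSO libraries lay clear of the rest. Its log2 fold change was -0.61 with Degrader (SE 0.0714, edgeR adjusted p = 4.71e-04) and -0.50 with GDC0068 (SE 0.0713, edgeR adjusted p = 0.00753). PFKL, the liver-type phosphofructokinase subunit, fell by 0.43 with Degrader (log2; edgeR adjusted p = 5.38e-04) and by 0.25 under GDC0068 (edgeR adjusted p = 0.0279), from 143 and 141 CPM in DMSO to 108 and 103 CPM under Degrader. PFKM, the muscle-type subunit, was not called (-0.02 and -0.13). GAPDH, which oxidises glyceraldehyde 3-phosphate, fell by 0.44 under Degrader (edgeR adjusted p = 0.00177); its GDC0068 value of -0.26 (edgeR adjusted p = 0.0551) was called with the block (edgeR adjusted p = 8.23e-04), as was PGAM1, a phosphoglycerate mutase, under Degrader (-0.26, edgeR adjusted p = 0.00186); PFKM and PGAM1 were named after their values were seen.

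The subunits of phosphofructokinase can be set side by side per kb. PFKL made up 57.5% and 58.2% of their summed level under Degrader and 60.2% to 61.3% in DMSO and GDC0068. PFKP made up 24% and 22.8% in DMSO and 21.2% to 21.5% under the drugs. PFKM held 15.6% and 17% in DMSO and 17.5% to 21% under the drugs. ALDOA made up 73.6% and 73.8% of the sum of ALDOA and ALDOC under Degrader and 75% to 76.3% in DMSO and GDC0068. ENO1 made up 77.8% to 81.1% of the sum of ENO1, ENO2 and ENO3, with the arms overlapping.

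**Figure D4:**
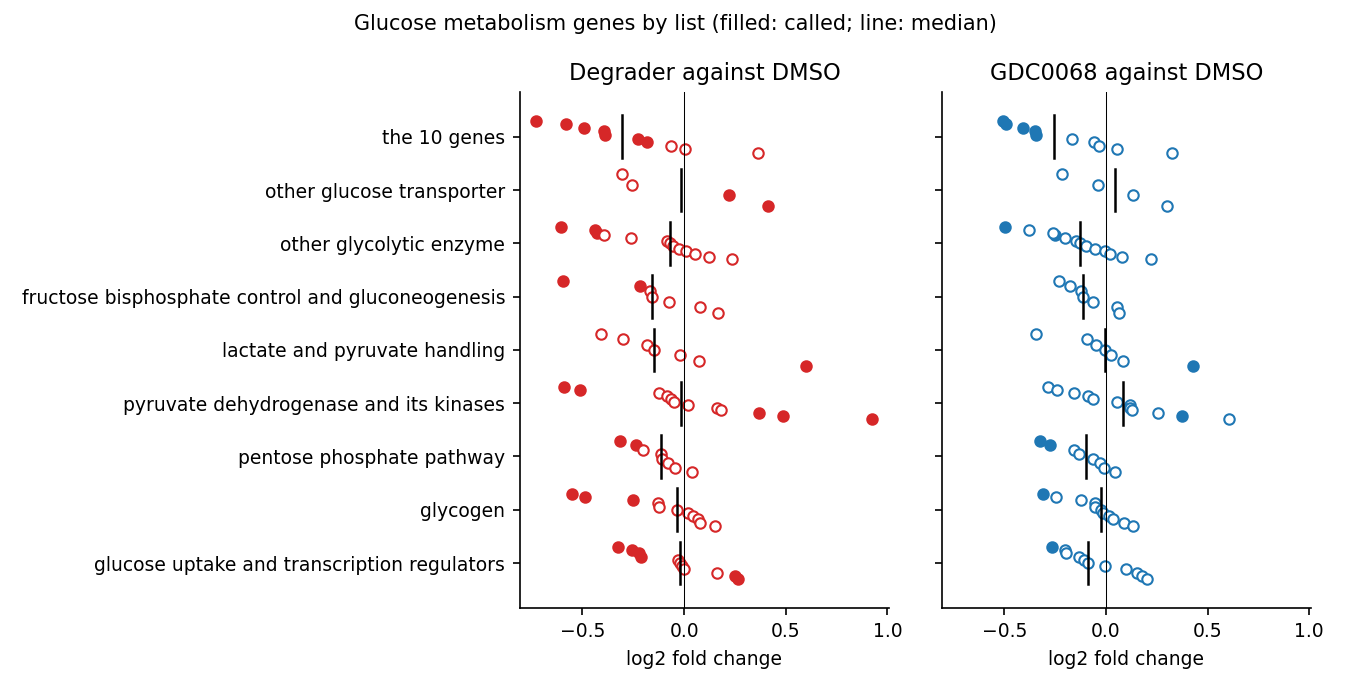
log2 fold change of the 10 genes and of 73 further glucose metabolism genes by list, under Degrader (red) and GDC0068 (blue) against DMSO; filled points were called by edgeR, and black lines are list medians. The 10 genes have medians of -0.31 and -0.26, and filled points on the right include PDK2 and LDHD under both drugs.

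Genes that steer pyruvate behaved unevenly; of those in this and the next paragraph, LDHD and PDK2 were named by rule and the rest after their values were seen. LDHD, a mitochondrial D-lactate dehydrogenase, was the 1 of 7 lactate and pyruvate genes called under either drug, a share near the 15.3% of all intervals under Degrader. With the block, SLC16A3 and MPC2 were also called lower under Degrader (edgeR adjusted p of 0.0162 and 0.0458). LDHD had 20.1 and 20.6 CPM in DMSO, 29.7 and 25.2 CPM under GDC0068 and 31.0 and 30.9 CPM under Degrader. It rose by 0.60 with Degrader (log2; SE 0.0915, edgeR adjusted p = 0.00169) and by 0.43 under GDC0068 (edgeR adjusted p = 0.0319). Of the 12 genes of pyruvate dehydrogenase and its control, Degrader raised PDK2 (0.49, edgeR adjusted p = 7.37e-04), PDK4 (0.93, from 2.31 CPM, edgeR adjusted p = 0.00702) and PDP2 (0.37, edgeR adjusted p = 0.0216) and lowered PDK1 (-0.59, edgeR adjusted p = 0.00418) and PDP1 (-0.51, edgeR adjusted p = 0.0381). PDK genes encode kinases that switch pyruvate dehydrogenase off, and PDP genes encode phosphatases that switch it on. Under GDC0068 1 of these 12 was called, PDK2 (0.37, edgeR adjusted p = 0.0134). Of all intervals 3.58% were called under GDC0068 and 15.3% under Degrader. With the block 5 of the 12 were called under GDC0068, adding PDK4 and PDP2 (higher) and PDK1 and DLAT (lower), with edgeR adjusted p from 0.00742 to 0.0443. Under Degrader it added PDPR (higher, edgeR adjusted p = 0.00197). The block called 17.8% of all intervals under GDC0068 and 30.7% under Degrader.

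Of 4 other transporter genes tested, SLC2A10 (0.41, edgeR adjusted p = 0.00449) and SLC2A13 (0.22, edgeR adjusted p = 0.0293) were higher under Degrader, and 0 of 4 were called under GDC0068 (3 had an unadjusted p under 0.05). With the block all 4 were called under Degrader, adding SLC2A6 and SLC2A8 as lower (edgeR adjusted p of 0.00187 and 0.00468). It called 3 under GDC0068, SLC2A10 and SLC2A13 higher and SLC2A6 lower (edgeR adjusted p of 2.19e-05, 0.0121 and 0.0123). Over all intervals the block called 30.7% under Degrader and 17.8% under GDC0068, and the fit without it 15.3% and 3.58%. Among 7 genes of fructose bisphosphate control and gluconeogenesis, TIGAR, a fructose 2,6-bisphosphatase (-0.60, edgeR adjusted p = 0.00344), and PCK2, the mitochondrial phosphoenolpyruvate carboxykinase (-0.22, edgeR adjusted p = 0.0435), were lower under Degrader; with the block PCK2 was also called lower under GDC0068 (edgeR adjusted p = 0.0426). Of 11 regulators of uptake and transcription, 4 were lower under Degrader and 2 higher, where 7.88% of all intervals were lower and 7.39% higher. The lower ones were TBC1D1, a Rab GTPase-activating protein of transporter traffic (-0.32, edgeR adjusted p = 0.00462), and MLXIP, MLXIPL and MLX of the glucose-sensing transcription factors (-0.21, -0.26 and -0.22); the higher ones were FOXO1 and FOXO3 (0.26 and 0.25). Under GDC0068 1 of the 11 was called, TBC1D1 (-0.26, edgeR adjusted p = 0.0361), and 6 with the block, adding MLXIP, MLXIPL and MLX (lower) and FOXO1 and MYC (higher). HIF1A stood at 93.7 and 94.3 CPM in DMSO and at 90.0 to 97.4 CPM under the drugs (log2 fold changes 0.00 and -0.01). MYC had 169 and 114 CPM in DMSO and 149 to 168 CPM under the drugs, with values of 0.16 and 0.18 that were not called, and were called higher with the block (edgeR adjusted p of 0.0199 and 0.0191). DMSO replicate 2 was the lowest of the 6 libraries for both MYC and PFKFB3.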

How the data were processed

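Nuclear run-on libraries of T47D cells were analysed in 3 arms of 2 libraries. The deposited values are raw counts per gene interval, whole numbers whose totals differ between libraries. Per the submitters' processing notes, cutadapt 1.14, Bowtie 1.2.2, SAMtools 1.3.1, HISAT2 2.2.1 and limma were used and the builds hg38, GRCh38 and dm3 were named, with no role for any of them. The counting tool, the use of strand, the handling of duplicates, any spike-in scaling and which stretch of each gene the counts cover are not given in the sources used here. Changes are therefore relative to the bulk of genes, and counting errors cover counting only.

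The analysis used edgeR 4.0.16 in R 4.3.3. filterByExpr (minimum count 10, minimum total 15) kept 19902 of 20333 intervals, libraries were scaled with TMM, a trimmed mean of gene ratios (factors 0.997 to 1.003), and all 6 libraries entered 1 quasi-likelihood fit with a term per arm and 3 residual degrees of freedom. The biological coefficient of variation common to all genes was 5.51%. Calls are at p under 0.05 after Benjamini-Hochberg adjustment over all tested intervals. Adjusted p-values come from this edgeR fit where no other is named. A fold change divided by the root of its F statistic gives its standard error. SDs are over the 2 libraries of an arm. With 2 libraries per arm no permutation test between arms can pass 0.05.

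The labels give replicate numbers, and the series text speaks of independent experiments. Across genes, the deviations of same-numbered libraries from their arm means correlated with r of 0.177 to 0.22 in the 3 pairs of arms, so the number was taken to mark the experiment. The fit with it as a block is given where it changes a call of the 10 genes, and for the further genes as counts or by name. Alternatives, tried one at a time, were this block, fits to the 4 libraries compared, DESeq2 1.42.0, voom of limma 3.58.1 and 3 other scalings. Further ones were 2 other filters, robust estimation, leaving out intervals that overlap on the same strand and leaving out each library. The 10 genes were kept in the overlap refit, so their own counts did not change. Besides ALDOA, SLC2A1 and LDHA overlap such intervals, ATP6V0CP4 (3.55% of SLC2A1) and AC084117.1 (1.88% of LDHA).

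The 10 genes and the lists were chosen with earlier results of these data known. Named are the 10 genes, per contrast the 6 called genes of the 89 other glucose metabolism genes with the smallest adjusted p, and the 4 genes closest in profile to the member with the smallest adjusted p, among intervals of at least 200 bp with a mean of at least 10 CPM. Other names are marked as chosen after their values were seen. Promoter sequences are RefSeq's (GRCh38.p14).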

Additional observations from a re-analysis of the deposited data

How the results depend on the processing

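Of 510 refits of the 10 genes (17 alternatives in 3 contrasts), 475 kept direction and side of the threshold, 20 lost a call, 5 gained one and 10 changed sign, none of the last in a called value. The sign changes all came from leaving out 1 library: ENO1 then ranged from -0.0358 to 0.0395 under Degrader and from -0.018 to 0.1108 under GDC0068, and HK1 under GDC0068 from -0.0934 to 0.0118. Between the drugs HK1 ranged from -0.0745 to 0.0308, PFKFB3 from -0.1242 to 0.1924, ALDOA from -0.0409 to 0.0161, ENO1 from -0.104 to 0.0249 and PKM from -0.0952 to 0.0067. The number of the 10 genes called by edgeR under Degrader was 5 to 7 with a library left out; under GDC0068 it was 1 to 5, with 1 without DMSO replicate 1. The same refits gave 11 to 26 of the further genes under Degrader and 0 to 8 under GDC0068, and 931 to 3217, 37 to 546 and 5 to 63 of all intervals for Degrader, GDC0068 and the direct contrast. The replicate block gave 6114, 3540 and 2065 of all intervals in place of 3039, 712 and 53, 23 further genes under GDC0068, and 10 further genes and 1 of the 10 genes (SLC2A1) between the drugs; it changed no call of the 10 genes beyond those given above. Between the drugs the count of all intervals was 23 in the fit to 4 libraries, 124 with DESeq2 and 116 with robust estimation. The cause of these shifts was not tested, except that leaving out a library leaves fewer samples. Without length scaling, 3 of the 10 genes keep their place in the order of DMSO levels. Scalings moved the median of all intervals by under 0.1 on the log2 scale. At 447 counts, the fewest of any member, counting error is 4.73%, which limits HK2 most.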

Other observations

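A few genes of side branches were also called lower. Of 8 pentose phosphate pathway genes tested, TKT and PGD were called lower under both drugs and 0 higher, by edgeR, where 7.88% of all intervals were lower under Degrader and 1.88% under GDC0068. TKT, the transketolase of the non-oxidative branch, had 105 and 102 CPM in DMSO, 83.5 and 82.2 CPM under GDC0068 and 88.3 and 78.3 CPM under Degrader, with log2 fold changes of -0.31 under Degrader (edgeR adjusted p = 0.00555) and -0.32 under GDC0068 (edgeR adjusted p = 0.0177). PGD, the second dehydrogenase of the oxidative branch, stood at -0.24 (edgeR adjusted p = 0.0243) and -0.27 (edgeR adjusted p = 0.0361).

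Of 11 glycogen genes tested, 3 were called lower under Degrader and 0 higher, where 7.88% of all intervals were lower and 7.39% higher. With the replicate block GBE1, the branching enzyme, named after its value was seen, was called lower as well (edgeR adjusted p = 0.0294). GYG1, which encodes the glycogenin that primes glycogen chains, had 45.1 and 44.3 CPM in DMSO, 36.4 and 35.7 CPM under GDC0068 and 32.5 and 28.6 CPM under Degrader. It fell by 0.55 with Degrader (log2; edgeR adjusted p = 7.46e-04) and fell by 0.31 with GDC0068 (edgeR adjusted p = 0.0378). The others, named after their values were seen, were PGM1, a phosphoglucomutase (-0.49, edgeR adjusted p = 0.0211), and PYGB, a glycogen phosphorylase (-0.25, edgeR adjusted p = 0.00672), which were not called under GDC0068 (-0.25 and -0.06). With the replicate block PGM1 was called lower under GDC0068 (edgeR adjusted p = 0.0389).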
